A study of Mus musculus with 15 samples.

Results

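The 10 genes described here encode the glucose transporter GLUT1 and enzymes that turn glucose into lactate. They are *Slc2a1*, *Hk1*, *Hk2*, *Gpi1*, *Pfkl*, *Aldoa*, *Pgk1*, *Eno1*, *Pkm* and *Ldha*. They were chosen by name as representatives of glucose uptake and glycolysis, and all 10 were found among the 17454 genes of the expression table. Glycolysis splits glucose into pyruvate in the cytosol and yields ATP without oxygen, and lactate dehydrogenase then reduces pyruvate to lactate and restores the NAD+ that the pathway needs. The pathway also feeds branches such as the pentose phosphate pathway, and many of its genes carry binding sites for hypoxia-inducible factors. Red cells, which lose their mitochondria when they mature, depend on it for ATP.

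RNA-seq was done on erythro-myeloid progenitors (EMPs), blood progenitors that bud from the endothelium of the yolk sac (YS), sorted at E10.5 from individual YS of C57BL/6 embryos as LIN-SCA1-KIT+CD16/32+CD41+ cells. All groups carried Ezh2fl/fl, alleles from which Cre removes the SET domain of the histone methyltransferase EZH2. Tie2-Ezh2-KO (Tie2-CreTg/+, n = 5) lost it in endothelium and so also in the EMPs that emerge from it, and Vav-Ezh2-KO (Vav-CreTg/+, n = 5) lost it in blood cells as they emerge. Controls without Cre came from both crosses, Tie2-Ezh2-WT (n = 3) and Vav-Ezh2-WT (n = 2), and are called WT where the 5 form a single group. The *Tie2* promoter drives Cre in endothelium as a whole, so that in Tie2-Ezh2-KO the vessels around the EMPs carried the deletion too. The labels give 500 cells and 16 cycles of cDNA amplification per library, while the text of the study gives a smaller number of cells. The YS were collected in several experiments that are not assigned to libraries in the sources used here, so a batch of collection and a group cannot be told apart.

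Values are given in the order of the labels' replicate numbers, which are 4, 10 and 12 for Tie2-Ezh2-WT, 4 and 6 for Vav-Ezh2-WT, 7, 9, 11, 13 and 17 for Tie2-Ezh2-KO, and 1, 9, 10, 26 and 28 for Vav-Ezh2-KO. Depth, as reads on genes recovered from the expression values, was 10407398, 15811738 and 41025074 in Tie2-Ezh2-WT and 14890780 and 19957939 in Vav-Ezh2-WT. It was 15934827, 15284308, 14818723, 26825709 and 16091836 in Tie2-Ezh2-KO and 28243857, 18418304, 16855049, 11506895 and 28714656 in Vav-Ezh2-KO. Depth therefore overlapped between all groups, and the deepest and the shallowest library were both Tie2-Ezh2-WT. Levels are in RPKM, reads per kilobase of gene and 1e6 reads, which corrects for gene length and so allows levels of different genes to be compared where they share little sequence. Changes are differences of group means of log2(RPKM + 0.2), where 0.2 is a pseudocount that understates the change of low genes. A gene was called when its adjusted p from limma over all genes tested was under 0.05.

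*Ezh2*, the targeted gene, was at 36.9, 39.5 and 30.1 RPKM in Tie2-Ezh2-WT, 42.0 and 41.5 in Vav-Ezh2-WT, 27.8, 26.2, 24.8, 29.5 and 26.5 in Tie2-Ezh2-KO and 33.7, 42.4, 37.8, 38.1 and 34.0 in Vav-Ezh2-KO. Tie2-Ezh2-KO had the 5 lowest values of the 15, while Vav-Ezh2-KO and WT overlapped. The change was -0.48 in Tie2-Ezh2-KO against WT (limma, adjusted p = 0.0418), a call lost in 11 of 22 alternatives with adjusted p up to 0.344, and -0.02 in Vav-Ezh2-KO against WT (adjusted p = 0.969). The RPKM value counts reads over the whole gene, so it does not separate the deleted exons from the rest and does not test the Vav-Ezh2-KO label. *Kit*, *Itga2b* (CD41), *Fcgr3* and *Fcgr2b* (CD16/32) are genes of the EMP gate, and *Ptprc*, outside the gate as given above, was added to them. These 5 genes summed to 203 ± 24.9 RPKM in WT (SD, n = 5), 158 ± 19.4 in Tie2-Ezh2-KO and 204 ± 55.6 in Vav-Ezh2-KO. For Tie2-Ezh2-KO against WT the exact permutation p of this sum was 0.0238, and all 5 genes had changes below 0 with a median of -0.47, while limma called 0 of the 5 in any comparison.

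Several libraries stood apart. Genes of the visceral endoderm, the outer layer of the YS (*Afp*, *Ttr*, *Apoa1*, *Apob*, *Amn*, *Trf*), summed to 159 RPKM in Tie2-Ezh2-WT 4 and 211 in Tie2-Ezh2-KO 7, against 9.09 to 31.5 in the other libraries. All Tie2-Ezh2-KO sums (23.1 to 211) lay above all Vav-Ezh2-KO sums (9.09 to 20.8; exact permutation p = 0.00794). The exact permutation p was 0.476 for Tie2-Ezh2-KO against WT and 0.0397 for Vav-Ezh2-KO against WT. The WT sums were 159, 20.2 and 24.5 RPKM in Tie2-Ezh2-WT and 16.4 and 24.5 in Vav-Ezh2-WT, and overlapped those of Tie2-Ezh2-KO. The part of these transcripts in differences between the knockouts was not tested. *Trf* was the most abundant of the 6 by mean, *Apoa1* in Tie2-Ezh2-KO 7, and *Apob* stayed at or below 0.2 RPKM in every library. *Amn* was also higher in all 5 Tie2-Ezh2-KO libraries (4.66, 1.67, 1.52, 2.08 and 2.21 RPKM) than in any WT library (0.798, 0 and 0 in Tie2-Ezh2-WT and 0 and 0.119 in Vav-Ezh2-WT; limma, adjusted p = 0.00155). Tie2-Ezh2-KO 9 had the lowest mean gene length per read, 2348 bases against up to 2736 in Tie2-Ezh2-KO 13, and was the lowest of 15 libraries for *Hk1*, *Pfkl*, *Pkm* and *Ldha*.

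Markers of other cells were read in the same way. The primitive erythroid genes *Hba-x*, *Hbb-bh1* and *Hbb-y* summed to 309, 585, 855, 192 and 284 RPKM in Tie2-Ezh2-KO, to 139.6, 126 and 142 in Tie2-Ezh2-WT, to 65.2 and 118 in Vav-Ezh2-WT and to 85.0, 121, 59.9, 155 and 152 in Vav-Ezh2-KO. All Tie2-Ezh2-KO sums lay above all others, and 2 of the 3 genes were called higher in Tie2-Ezh2-KO against WT, *Hba-x* by 6.33 (limma, adjusted p = 8.88e-05) and *Hbb-bh1*, the most abundant, by 1.18 (adjusted p = 0.0441). The *Hba-x* call was lost in 1 of 22 alternatives, limma-voom (adjusted p = 0.0806), and the *Hbb-bh1* call in 15 of 22, with adjusted p up to 0.246. Sums over the maturing erythroid list were 3.72 to 11.6 RPKM (*Hbb-b1* at or below 0.2 throughout), over endothelium 24.2 to 52.8, over megakaryocytes 135 to 350 and over macrophages 8.09 to 25 (*C1qa* at or below 0.2 throughout). The macrophage sums averaged 15.4 RPKM in Tie2-Ezh2-KO and 21.5 in Vav-Ezh2-KO (exact permutation p = 0.0159). Without a deletion they averaged 16.1 in Tie2-Ezh2-WT and 22.5 in Vav-Ezh2-WT. For Tie2-Ezh2-KO against WT the exact permutation p was 0.381. Of the 6 endothelial genes, 5 had changes above 0 in Tie2-Ezh2-KO against WT (median 0.26) and 5 against Vav-Ezh2-KO (0.42). Between the controls 4 did (0.28), and 0 were called. *Pecam1*, the most abundant of the 6, had a change below 0 in Tie2-Ezh2-KO against WT. The endothelial sums averaged 38.7 RPKM in WT, 38.0 in Tie2-Ezh2-KO and 37.3 in Vav-Ezh2-KO. Their exact permutation p was 0.833 for Tie2-Ezh2-KO against WT and 0.913 against Vav-Ezh2-KO. Mesenchyme summed to 0.0231 to 1.48 RPKM with 4 of 5 genes at or below 0.2 in every library, and the genes depleted by the sort (*Ly6a*, *Il7r*, *Adgre1*) to 0.25 to 2.95. Of these lists, limma called *Cd68*, a lysosomal protein of macrophages, lower in Tie2-Ezh2-KO against Vav-Ezh2-KO (-0.71, adjusted p = 0.0333), a call lost in 9 of 19 alternatives.

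Members of the pathway were among the most abundant transcripts of EMPs, and their levels spanned a wide range. In order of the mean over 15 libraries they were *Ldha* (2502 RPKM), *Aldoa* (1075), *Pkm* (656), *Pgk1* (388), *Gpi1* (222), *Pfkl* (87.6), *Slc2a1* (52.3), *Hk1* (22.7), *Eno1* (20.2) and *Hk2* (4.94). The places of *Eno1* and *Pgk1* are uncertain, since other annotated genes share 65.4% and 67.5% of the windows of 75 bases in their transcripts. By WT mean, *Ldha* ranked 7, *Aldoa* 46 and *Pkm* 97 among the 17454 genes, and *Hk2* ranked 6587. Neighbours in this order differed in all 15 libraries with ranges apart, except that *Pkm* exceeded *Pgk1* in 14 of 15, *Hk1* exceeded *Eno1* in only 9 of 15, and *Pfkl* exceeded *Slc2a1* in all 15 with overlapping ranges. The coefficient of variation over the libraries ran from 6.37% for *Aldoa* to 37.2% for *Hk2*, with a median of 16.7% over the members and 15.5% over the 5466 genes of at least 10 RPKM on average. All 10 members passed the filter on low values in every comparison.

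**Figure D1:**
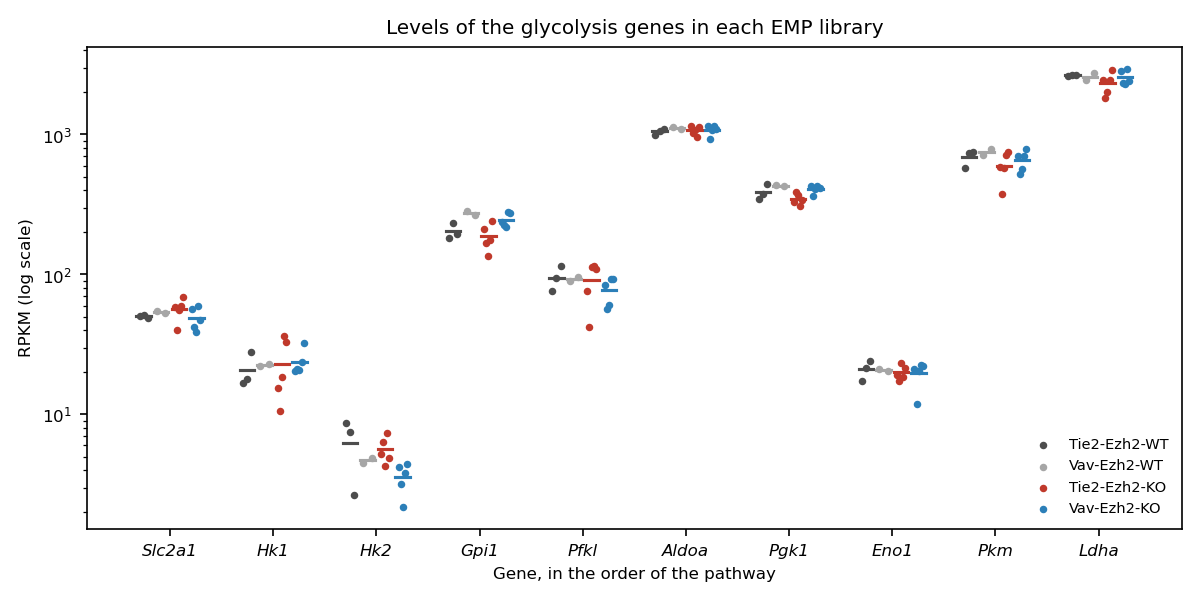
RPKM of the 10 genes (log axis) in each library, with each dot a library, the 4 groups by color and short lines at the group means. *Ldha* lay between 1812 and 2942 RPKM in all 15 libraries and *Hk2* between 2.17 and 8.74, and the groups overlapped for most genes.

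*Slc2a1* encodes GLUT1, which lets glucose enter the cell down its gradient (chromosome 4, 119108745 to 119137330 in GRCm38). It was at 50.3, 51.3 and 48.9 RPKM in Tie2-Ezh2-WT, 54.6 and 52.9 in Vav-Ezh2-WT, 58.4, 39.8, 55.8, 59.5 and 69.0 in Tie2-Ezh2-KO and 56.4, 42.2, 38.8, 59.2 and 47.4 in Vav-Ezh2-KO. The WT libraries were tightly grouped and both knockouts spread on either side of them, with Tie2-Ezh2-KO 17 the highest and Vav-Ezh2-KO 10 the lowest of all. The change against WT was 0.11 in Tie2-Ezh2-KO (95% confidence interval -0.17 to 0.39) and -0.10 in Vav-Ezh2-KO (-0.34 to 0.15).

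Hexokinases phosphorylate glucose and so trap it in the cell, *Hk1* as the broadly expressed form and *Hk2* as the form most often induced by growth factors and low oxygen. *Hk1* was at 16.8, 17.8 and 28.0 RPKM in Tie2-Ezh2-WT, 22.1 and 22.8 in Vav-Ezh2-WT, 15.4, 10.6, 18.6, 36.6 and 33.1 in Tie2-Ezh2-KO and 20.4, 21.3, 20.8, 23.7 and 32.3 in Vav-Ezh2-KO. The Tie2-Ezh2-KO libraries held the lowest and the highest values of the 15 and enclosed all other groups. *Hk2* was at 8.74, 7.46 and 2.67 RPKM in Tie2-Ezh2-WT, 4.52 and 4.86 in Vav-Ezh2-WT, 5.23, 6.40, 4.30, 7.33 and 4.85 in Tie2-Ezh2-KO and 4.23, 3.16, 2.17, 3.80 and 4.40 in Vav-Ezh2-KO. Tie2-Ezh2-WT alone nearly spanned the whole range, while 4 of 5 Tie2-Ezh2-KO libraries lay above every Vav-Ezh2-KO library.

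In the preparatory phase, *Gpi1* interconverts glucose 6-phosphate and fructose 6-phosphate, *Pfkl* is the liver-type subunit of phosphofructokinase, the main point of control, and *Aldoa* is the aldolase that cuts the sugar into trioses. *Gpi1* (chromosome 7, 34201327 to 34230336) was at 181, 232 and 196 RPKM in Tie2-Ezh2-WT, 282 and 267 in Vav-Ezh2-WT, 213, 167, 136, 177 and 241 in Tie2-Ezh2-KO and 235, 226, 218, 279 and 274 in Vav-Ezh2-KO. Both groups of the Tie2 cross lay mostly below those of the Vav cross: all 3 Tie2-Ezh2-WT libraries were below both Vav-Ezh2-WT libraries, and 4 of 5 Tie2-Ezh2-KO libraries below all Vav-Ezh2-KO libraries. *Pfkl* was at 76.3, 93.6 and 114 RPKM in Tie2-Ezh2-WT, 90.2 and 95.6 in Vav-Ezh2-WT, 76.6, 42.4, 113, 115 and 110.1 in Tie2-Ezh2-KO and 84.4, 56.9, 60.2, 92.6 and 93.3 in Vav-Ezh2-KO. Tie2-Ezh2-KO 9 was far below the rest of its group and all groups overlapped. *Aldoa* was at 999.7, 1057 and 1101 RPKM in Tie2-Ezh2-WT, 1123 and 1095 in Vav-Ezh2-WT, 1143, 1033, 1069.6, 965 and 1139 in Tie2-Ezh2-KO and 1159, 932, 1070.1, 1150.1 and 1097 in Vav-Ezh2-KO. It varied least of the 10, and its interval of change in Tie2-Ezh2-KO against WT was -0.20 to 0.19.

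In the payoff phase, *Pgk1* makes ATP from 1,3-bisphosphoglycerate, *Eno1* forms phosphoenolpyruvate, and *Pkm* makes ATP and pyruvate. *Pgk1* (chromosome X, 106187100 to 106203699) was at 348, 377 and 443 RPKM in Tie2-Ezh2-WT, 435 and 429 in Vav-Ezh2-WT, 329.9, 386, 368, 308 and 341 in Tie2-Ezh2-KO and 431, 365, 411, 429.9 and 416 in Vav-Ezh2-KO. The 3 lowest of the 15 values were Tie2-Ezh2-KO libraries and the others of that group lay within the range of Tie2-Ezh2-WT. *Pkm* was at 574, 737 and 749 RPKM in Tie2-Ezh2-WT, 711 and 782 in Vav-Ezh2-WT, 587, 377, 573, 716 and 749 in Tie2-Ezh2-KO and 698, 526, 562, 708 and 784 in Vav-Ezh2-KO. Tie2-Ezh2-KO 9 was the lowest and Vav-Ezh2-KO 28 the highest, and the groups overlapped. *Eno1* was at 17.4, 21.4 and 24.1 RPKM in Tie2-Ezh2-WT, 20.9 and 20.6 in Vav-Ezh2-WT, 19.1, 17.2, 23.4, 18.4 and 21.6 in Tie2-Ezh2-KO and 21.1, 11.9, 20.4, 22.6 and 22.2 in Vav-Ezh2-KO. Vav-Ezh2-KO 9 was the lowest and the others of its group lay within the range of WT.

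*Ldha* encodes the muscle-type subunit of lactate dehydrogenase, which closes the path to lactate. It was at 2621, 2648 and 2662 RPKM in Tie2-Ezh2-WT, 2441 and 2734 in Vav-Ezh2-WT, 2466, 1812, 2007, 2441 and 2887 in Tie2-Ezh2-KO and 2832, 2342, 2299, 2942 and 2399 in Vav-Ezh2-KO. The 3 Tie2-Ezh2-WT values were nearly equal, Tie2-Ezh2-KO 9 and 11 were the lowest of the 15, and Tie2-Ezh2-KO 17 was among the highest. The RPKM of the 10 members summed to 5239 ± 229 in WT (SD, n = 5), 4723 ± 638 in Tie2-Ezh2-KO and 5130.3 ± 514 in Vav-Ezh2-KO, or 0.79% to 1.18% of all reads on genes.

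Tie2-Ezh2-KO against WT asks what loss of *Ezh2* from the endothelial stage on does to EMPs. Of the 10 members, limma called 0, where 386 of 14154 genes tested (2.73%) were called, 343 of them higher. At an unadjusted p under 0.05 there was 1 member, *Pgk1*, beside 1552 of the 14154 genes tested, and limma-voom on recovered reads called 0. Changes of the members were between -0.32 and 0.11 with a median of -0.09, against 0.01 over all genes tested. The change was below 0 for 8 of 10, and *Hk1*, 1 of the 8, turned above 0 under quantile normalization. The lowest changes were those of *Gpi1* at -0.32 (95% confidence interval -0.66 to 0.03; limma, adjusted p = 0.523), *Pkm* at -0.27 (-0.62 to 0.07; adjusted p = 0.657) and *Pgk1* at -0.23 (-0.45 to -0.01; adjusted p = 0.414). *Pgk1* gave an unadjusted two-sided exact permutation p of 0.0476, where 5 against 5 libraries allow 0.00794 at the least. The groups separated completely for 0 of 10 members and for 4.01% of all genes tested. A p that misses the threshold does not show that values did not differ: the intervals of the 10 members together reached from -0.66 to 0.68. As these are pools of cells, fewer cells with a transcript and less of it in each cell cannot be told apart.

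Part of these values rests on the choice of libraries. Against the Tie2-Ezh2-WT libraries alone, *Gpi1* was at -0.14 and no longer the lowest, *Pkm* at -0.22 and *Pgk1* at -0.16, with *Hk1* and *Aldoa* above 0 and *Hk2* below. The median of the members was -0.21 without Tie2-Ezh2-KO 17, -0.20 without 13, -0.16 without Tie2-Ezh2-WT 4 and -0.01 without Tie2-Ezh2-KO 9. Without Tie2-Ezh2-KO 17, *Pkm* was at -0.36, *Ldha* at -0.28 and *Slc2a1* at 0.03. Without Tie2-Ezh2-KO 9 the change of *Pkm* was -0.12, that of *Ldha* -0.11 (with it -0.19), that of *Pgk1* -0.27 and that of *Slc2a1* 0.23, while *Aldoa* (0.00 to 2 decimals), *Hk1* and *Pfkl* turned above 0, the last 2 to 0.20 and 0.13. Without the 2 libraries with the highest visceral endoderm sums, *Gpi1* was at -0.45 and *Pgk1* at -0.27, with 0 members called by limma in either case. For the summed RPKM of the members against WT the exact permutation p was 0.143 as deposited and 0.0159 after scaling the libraries to a common median, with means of 4586 ± 358 in Tie2-Ezh2-KO and 5281 ± 513 in WT on that scale. The mean sum thus lay below WT under both scalings, and only the scaled one passed 0.05. The exact permutation p was 0.151 for the members' share of reads and 0.246 for their share of all RPKM. It was 0.0952 for the sum without *Ldha* and *Aldoa*, the most abundant members.

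Vav-Ezh2-KO against WT asks the same of a deletion that begins once blood cells have emerged. Limma called 0 of 10 members, beside 1 of 13646 genes tested (0.00733%), which was *Sva*. There were 0 members at an unadjusted p under 0.05, beside 7.93% of all genes, and limma-voom called 0. The median change was -0.07 over the members and -0.02 over all genes, with 4 members above 0 and 6 below. The median of the members turned to 0.02 without Vav-Ezh2-KO 9, and was -0.01 without Vav-Ezh2-KO 10. It was -0.11 without Vav-Ezh2-KO 1, -0.12 without Vav-Ezh2-KO 26 and -0.14 against the Vav-Ezh2-WT libraries alone. Under quantile normalization *Aldoa* and *Pgk1* turned below 0, and under scaling to a common median *Ldha* turned above 0. The lowest values were -0.57 for *Hk2* (95% confidence interval -1.19 to 0.05; limma, adjusted p = 0.657) and -0.30 for *Pfkl* (-0.62 to 0.02). Over the alternatives *Hk2* ran from -0.80, without Tie2-Ezh2-WT 12 (adjusted p = 0.460), to -0.08, with mean gene length per read as a covariate, an alternative chosen after seeing the data. *Pfkl* was at -0.19 without Vav-Ezh2-KO 9. The summed RPKM gave an exact permutation p of 0.667. Both knockouts were set against the same WT libraries, so their values are side by side only: *Gpi1* had -0.32 in Tie2-Ezh2-KO and 0.10 in Vav-Ezh2-KO, *Pgk1* -0.23 and 0.02, *Ldha* -0.19 and -0.04, and *Hk2* 0.08 and -0.57. Against the WT libraries of its own cross, each knockout had *Gpi1* below 0, at -0.14 in Tie2-Ezh2-KO and -0.16 in Vav-Ezh2-KO.

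**Figure D2:**
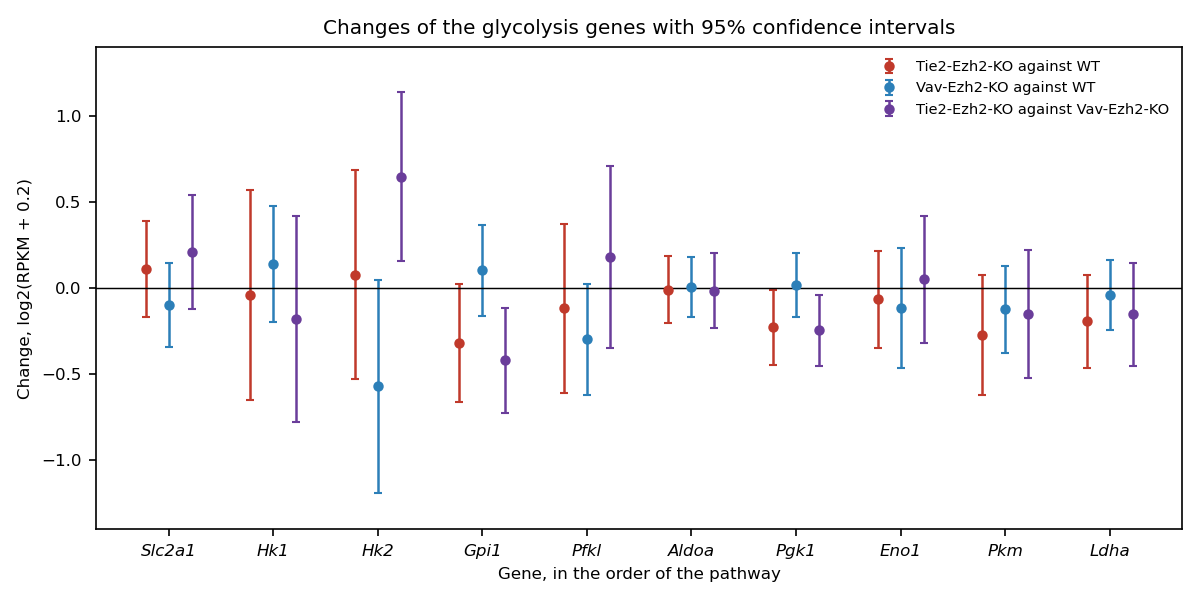
Change of each gene on the log2(RPKM + 0.2) scale (dots) with its 95% confidence interval from limma, not adjusted for the number of genes, in 3 comparisons by color. The intervals of *Pgk1* lay below 0 for Tie2-Ezh2-KO against WT and against Vav-Ezh2-KO, and in the latter that of *Gpi1* lay below 0 and that of *Hk2* above 0, while 0 of the genes passed an adjusted p of 0.05.

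Tie2-Ezh2-KO against Vav-Ezh2-KO compares the knockouts with no shared controls. The knockouts also differ by cross, which cannot be told apart from the deletions in this comparison. *Hk2* was higher and *Gpi1* and *Pgk1* lower in most Tie2-Ezh2-KO libraries, but limma called 0 of 10 members, beside 495 of 14120 genes (3.51%), 372 of them higher. The count was 3 at an unadjusted p under 0.05, beside 16.6% of all genes, and 0 by limma-voom. *Hk2* differed by 0.65 (95% confidence interval 0.15 to 1.14; limma, adjusted p = 0.151; exact permutation p = 0.0159). *Gpi1* differed by -0.42 (-0.72 to -0.12; adjusted p = 0.130; exact permutation p = 0.0397) and *Pgk1* by -0.25 (-0.45 to -0.04; adjusted p = 0.196; exact permutation p = 0.0238). The sign of these 3 held in all 19 alternatives, with adjusted p down to 0.0539 for *Gpi1*, without Tie2-Ezh2-KO 17. The median was -0.08 over the members and 0.04 over all genes. That of the members was -0.15 without Vav-Ezh2-KO 9, -0.14 without Tie2-Ezh2-KO 17 and -0.14 under scaling to a common median. It was -0.13 with mean gene length per read as a covariate, and turned to 0.05 under quantile normalization and 0.03 without Tie2-Ezh2-KO 9. Without that library *Hk1* went from -0.18 to 0.06, *Pkm* from -0.15 to 0.01 and *Pfkl* from 0.18 to 0.43. With mean gene length per read as a covariate they moved the other way, *Hk1* to -0.45, *Pkm* to -0.30 and *Pfkl* to -0.06, with *Ldha* from -0.15 to -0.24. Of the 6 members below 0, *Aldoa* and *Pkm* turned above 0 under quantile normalization, and *Eno1*, above 0, turned below it under scaling to a common median. The summed RPKM gave an exact permutation p of 0.302, and 0.0397 after scaling to a common median. That p was 0.333 for the members' share of reads, 0.714 for their share of all RPKM and 0.246 without *Ldha* and *Aldoa*.

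The controls of the crosses, Tie2-Ezh2-WT against Vav-Ezh2-WT, show differences without a deletion. Limma called 0 of 10 members, beside 2 of 14394 genes (0.0139%), and limma-voom called 0. At an unadjusted p under 0.05 there was 1 member, beside 6.05% of all genes. This was *Gpi1*, at -0.44 (95% confidence interval -0.85 to -0.04; limma, adjusted p = 0.797), beside -0.42 between the knockouts of the same crosses. *Hk2* was at 0.25 and *Pgk1* at -0.16 between the controls, beside 0.65 and -0.25 between the knockouts. Over the alternatives the control value of *Hk2* ran from -0.06 to 0.76, the latter without Tie2-Ezh2-WT 12. The groups did not overlap for 2 of 10 members, *Gpi1* and *Slc2a1*, and for 24.1% of all genes tested. An exact permutation test of 3 against 2 libraries cannot go below p = 0.1. The difference between the effects of the 2 deletions, each taken against the controls of its own cross, was tested as an interaction. Limma called 0 of 10 members and 26 of 14394 genes (0.181%), with 0 members at an unadjusted p under 0.05, beside 6.54% of all genes, and 0 called by limma-voom. The interaction of *Gpi1* was 0.02 (-0.47 to 0.52) and changed sign in 8 of 25 alternatives. It ran from -0.13, under scaling to a common median, to 0.13. The widest reach of an interval, from -0.64 to 1.43, was that of *Hk2* at 0.40, which ran from -0.11 to 0.73 over the alternatives.

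Most steps of glycolysis have isozymes, encoded by separate genes with their own tissues, and triosephosphate isomerase, *Gapdh* and phosphoglycerate mutase serve steps that have no member among the 10. Of 18 genes of both kinds tested in Tie2-Ezh2-KO against WT, limma called 1, *Ldhb*, the heart-type subunit of lactate dehydrogenase. *Ldhb* (chromosome 6, 142490249 to 142507957) was at 14.5, 8.43 and 17 RPKM in Tie2-Ezh2-WT, 8.69 and 11.5 in Vav-Ezh2-WT, 48.4, 53.7, 58.0, 24.3 and 46.9 in Tie2-Ezh2-KO and 17.1, 14.9, 12.7, 14.8 and 10.5 in Vav-Ezh2-KO. Every Tie2-Ezh2-KO library lay above every other library, and Tie2-Ezh2-KO 13 was the lowest of its group. *Ldhb* rose by 1.92 ± 0.24 (SE) in Tie2-Ezh2-KO against WT, or 3.78-fold (limma, adjusted p = 0.000383), and by 1.67 ± 0.21 against Vav-Ezh2-KO (adjusted p = 0.000391). In Vav-Ezh2-KO against WT its change was 0.25 (adjusted p = 0.777), and the difference between the effects of the deletions was 1.32 (0.49 to 2.16; adjusted p = 0.306), which did not pass. Both calls held in all alternatives, 22 and 19, with adjusted p between 5.22e-05 and 0.00625 for the first. Without the 2 libraries with the highest visceral endoderm sums the change against WT was 1.97 (limma, adjusted p = 0.00375), and without Tie2-Ezh2-KO 9 it was 1.85. Without those 2 libraries *Amn* was still higher, by 3.19 (limma, adjusted p = 0.000492). *Hba-x*, *Hbb-bh1* and *Amn* were also called higher in Tie2-Ezh2-KO against WT, and the part of such transcripts in the result for *Ldhb* was not tested.

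Even so, *Ldha* made up nearly all lactate dehydrogenase transcript. *Ldhb* was 0.455 ± 0.133% of the summed RPKM of *Ldha*, *Ldhb* and *Ldhc* in WT (SD, n = 5), 2.04 ± 0.808% in Tie2-Ezh2-KO and 0.543 ± 0.0788% in Vav-Ezh2-KO. The exact permutation p was 0.00794 for Tie2-Ezh2-KO against either group, the smallest this design can give, and 0.149 adjusted over 75 tests of shares. The total of the step was 2634 ± 111 RPKM in WT, 2369 ± 417 in Tie2-Ezh2-KO and 2577 ± 302 in Vav-Ezh2-KO (exact permutation p = 0.254 against WT). Shares and step totals were chosen after the data were seen.

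*Slc2a3* encodes GLUT3, a transporter of higher affinity for glucose. It was at 15.6, 19.6 and 15.4 RPKM in Tie2-Ezh2-WT, 19.9 and 18.9 in Vav-Ezh2-WT, 21.1, 18.8, 43.7, 45.4 and 39.5 in Tie2-Ezh2-KO and 20.4, 22.8, 17.7, 17.6 and 20.4 in Vav-Ezh2-KO. Tie2-Ezh2-KO 11, 13 and 17 stood above all other libraries, while 7 and 9 were close to the WT and Vav-Ezh2-KO values. The change was 0.82 against WT (0.32 to 1.32; limma, adjusted p = 0.0864) and 0.67 against Vav-Ezh2-KO (adjusted p = 0.131), neither past the threshold. *Slc2a1* remained the larger part of the 2 uptake genes, 74.3 ± 1.75% of their RPKM in WT and 63.6 ± 7.39% in Tie2-Ezh2-KO (exact permutation p = 0.0238, adjusted p over the shares = 0.149). *Hk3*, a hexokinase of myeloid cells, was at 0, 0.0200, 0, 0 and 0.836 RPKM in Tie2-Ezh2-KO and 0.353, 1.04 and 0.432 in Tie2-Ezh2-WT, with 1.56 and 1.03 in Vav-Ezh2-WT and 0.736, 0.615, 0.181, 0.239 and 0.788 in Vav-Ezh2-KO. In Tie2-Ezh2-KO, 4 of 5 values lay below all WT values (change -1.80; limma, adjusted p = 0.0656).

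*Gapdh*, which oxidizes glyceraldehyde 3-phosphate and is often used as a reference gene, was at 1672, 1963 and 1621 RPKM in Tie2-Ezh2-WT, 2465 and 2598 in Vav-Ezh2-WT, 1908, 1677, 1235, 1432 and 1951 in Tie2-Ezh2-KO and 2331, 2355, 2214, 2568 and 2495 in Vav-Ezh2-KO. Every library of the Tie2 cross, with or without Cre, lay below every library of the Vav cross. *Gapdh* fell by 0.56 in Tie2-Ezh2-KO against Vav-Ezh2-KO (limma, adjusted p = 0.0290), a call lost in 10 of 19 alternatives with adjusted p up to 0.232, and its difference between the controls was -0.54 (-0.90 to -0.17; adjusted p = 0.632). Against the pooled WT it was -0.33 in Tie2-Ezh2-KO and 0.24 in Vav-Ezh2-KO, neither called. The interaction was -0.03 (adjusted p = 0.995). Of 1346 windows of 75 bases in the *Gapdh* transcript, 80.3% also occur in other annotated genes and its level is uncertain. The 6 copies in the table held 30.5% to 31.2% of the reads on *Gapdh* and copies together in every library of both crosses.

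*Pgam1*, the phosphoglycerate mutase, was at 539, 475, 395, 449 and 538 RPKM in Tie2-Ezh2-KO and 707, 539.7, 662, 730.0 and 593 in Vav-Ezh2-KO, which did not overlap, with 626, 665 and 535 in Tie2-Ezh2-WT and 667 and 646 in Vav-Ezh2-WT. Its change of -0.43 between the knockouts (limma, adjusted p = 0.0598) and -0.39 against WT (adjusted p = 0.0789) did not pass. *Tpi1*, the triosephosphate isomerase, differed by -0.32 between the knockouts (adjusted p = 0.132). Of the enolase transcript, the row *Gm5506* (*Eno1b*) held 87.8% to 93.2% of RPKM and *Eno1* 4.66% to 8.16%. Since 64.2% of the windows of 75 bases in *Eno1* also occur in *Eno1b*, the levels of both are uncertain. Other genes share 67.5% of the windows of *Pgk1*, 40.6% of *Pgam1*, 19.6% of *Pkm*, 16.7% of *Ldhb* and 14.8% of *Gpi1*, and none of *Hk2*, *Pfkl* or *Slc2a3*.

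**Figure D3:**
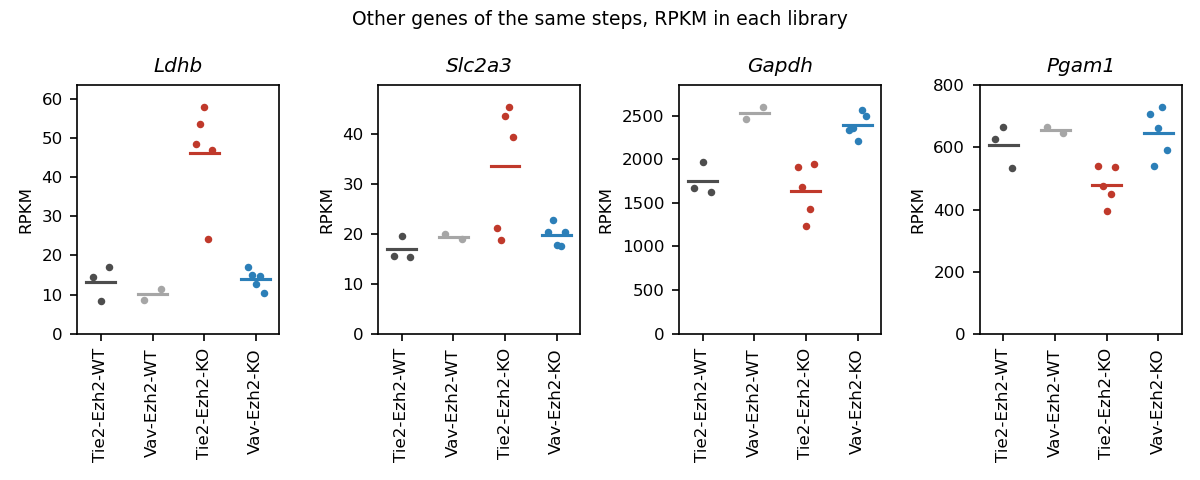
RPKM (linear axis from 0) of *Ldhb*, *Slc2a3*, *Gapdh* and *Pgam1* in each library, with dots for libraries and short lines for group means. All Tie2-Ezh2-KO libraries were above all others for *Ldhb* (24.3 to 58.0 RPKM against up to 17.1), and libraries of the Tie2 cross were below those of the Vav cross for *Gapdh*.

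The isozymes, the neighbouring pathways and the response to low oxygen were read as 9 lists. Over their 80 genes tested, limma called 2 (2.50%, against 2.73% of all genes) in Tie2-Ezh2-KO against WT, *Ldhb* and *P4ha2*, both higher, and 4 of 79 (5.06%, against 3.51%) in Tie2-Ezh2-KO against Vav-Ezh2-KO, with *Ldhb* and *P4ha2* higher and *Gapdh* and *Gyg* lower. It called 0 of 78 in Vav-Ezh2-KO against WT, 0 of 80 between the controls and 0 of 80 in the interaction. *P4ha2*, a collagen prolyl hydroxylase induced by low oxygen, was at 0, 0.0809 and 0 RPKM in Tie2-Ezh2-WT, 0.0573 and 0.812 in Vav-Ezh2-WT, 5.57, 1.14, 1.78, 2.29 and 2.09 in Tie2-Ezh2-KO and 0.181, 0.625, 0.430, 0.371 and 0.401 in Vav-Ezh2-KO, with every Tie2-Ezh2-KO value above every other, and rose by 2.98 against WT (limma, adjusted p = 0.00253). Its size rests on the handling of values near 0, with 1.52 at a pseudocount of 1 and 5.49 with limma-voom. The other 13 hypoxia-induced genes outside glycolysis were not called, among them *Bnip3* (-0.05, adjusted p = 0.964) and *Bnip3l* (-0.25, adjusted p = 0.420), 2 of the most abundant. Of the 6 hypoxia factors tested 0 were called by limma, with *Hif1a* at 0.15 (adjusted p = 0.884) and a list median of -0.01.

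*Gyg*, glycogenin, which starts glycogen chains, was at 79.4, 83.4 and 84.7 RPKM in Tie2-Ezh2-WT, 87.4 and 86.3 in Vav-Ezh2-WT, 66.7, 80.6, 66.4, 61.2 and 66.1 in Tie2-Ezh2-KO and 102, 109, 94.1, 89.8 and 86.1 in Vav-Ezh2-KO. All Tie2-Ezh2-KO values lay below all Vav-Ezh2-KO values, and 4 of 5 below all WT values. *Gyg* fell by 0.50 in Tie2-Ezh2-KO against Vav-Ezh2-KO (limma, adjusted p = 0.0155), a call lost in 3 of 19 alternatives, and its change against WT was -0.31 (adjusted p = 0.133), called in 2 of 22 alternatives. Of the remaining lists in Tie2-Ezh2-KO against WT, the 7 genes of the pentose phosphate pathway had changes below 0 throughout with a median of -0.15 and 0 called, led by *G6pdx*, its first enzyme (-0.38, adjusted p = 0.284). Between the controls, without a deletion, their median was -0.26 with 6 of 7 below 0, and the median of the interaction was -0.01. In Tie2-Ezh2-KO against WT the median was -0.04 for the 4 genes of lactate export (*Slc16a1* -0.10, *Bsg* 0.03), 0.06 for the 5 that control phosphofructokinase (*Pfkfb4* 1.77, adjusted p = 0.0705; list median -0.48 between the controls), 0.07 for the 13 of pyruvate entry into mitochondria and -0.15 for the 8 of glycogen. For the 5 tested genes of gluconeogenesis it was 0.84 in Tie2-Ezh2-KO and 0.85 in Vav-Ezh2-KO against WT, and -0.27 between the knockouts, with 0 called. Of these, *Fbp1* was at 0, 0 and 0.758 RPKM in Tie2-Ezh2-WT, 0.136 and 0.711 in Vav-Ezh2-WT, 2.67, 0.575, 1.0, 0.504 and 2.23 in Tie2-Ezh2-KO and 0.862, 0.697, 0.120, 1.23 and 0.306 in Vav-Ezh2-KO. The groups overlapped (limma, adjusted p = 0.132 in Tie2-Ezh2-KO against WT). In Vav-Ezh2-KO against WT the list median was the change of *Fbp1* itself, a gene of 0 to 63 reads per library. *Fbp2*, of the same list, differed by 2.22 between the controls, without a deletion (limma, adjusted p = 0.752). *Pgk2*, *G6pc* and *Cd3e* of the lists were not analysed here.

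Promoters of the members were read for the letters ACGTG, the core of the hypoxia response element, and CACGTG, an E-box that contains it, since *Hk2*, *Pgk1* and *Ldha* are textbook targets of hypoxia-inducible factors. RefSeq promoter windows, which run from 250 bases before to 50 after a start, matched all 10 members with 17 windows. ACGTG on either strand was in 8 of the 17, from 7 genes (*Slc2a1*, *Hk1*, *Hk2*, *Aldoa*, *Pgk1*, *Pkm*, *Ldha*), and in 19.6% of 32851 windows of all genes. CACGTG was in 1 of 17, of *Ldha*, and in 7.15% of all windows. A match is a description of letters and not of binding. Stretches of 160 bases that hold these letters in *Ldha* and *Pgk1* are printed 5′ to 3′, with capitals for ACGTG on either strand (and for CACGTG, which contains it). In GRCm38.p6 the first lies at chr7:46845644-46845803 (+), inside the interval annotated as *Ldha*, and the second at chrX:106186940-106187099 (+), ending at the base before the annotated start of *Pgk1*.
Ldha: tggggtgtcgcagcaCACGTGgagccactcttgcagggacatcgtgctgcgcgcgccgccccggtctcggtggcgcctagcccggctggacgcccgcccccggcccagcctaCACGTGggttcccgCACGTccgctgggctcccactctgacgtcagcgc
Pgk1: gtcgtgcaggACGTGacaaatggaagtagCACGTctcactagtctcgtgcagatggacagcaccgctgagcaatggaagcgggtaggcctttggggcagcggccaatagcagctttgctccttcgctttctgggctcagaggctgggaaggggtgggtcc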

How the data were processed

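Per the labels, libraries were made from 500 sorted EMPs of single YS (SMARTer Ultra Low, 16 cycles, Nextera XT) and read as 75-base single ends. The authors mapped reads to GRCm38 with TopHat2 2.0.13, counted them on RefSeq genes with featureCounts, and computed the deposited RPKM with an R script. The authors tested counts with DESeq2, and these were not used here. Reads were recovered here from the steps of the RPKM values, which came out whole (within 0.005) for all 16877 genes above 0, with 577 genes at 0 throughout. Median depth was 16091836 reads on genes, at which 1 read on a gene of 2 kb is about 0.0311 RPKM.

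From the RPKM table, limma 3.58.1 in R 4.3.3 (eBayes with trend) was fitted to log2(RPKM + 0.2) after dropping genes that exceeded 0.2 RPKM in none of the libraries fitted, and p was adjusted by Benjamini-Hochberg over all genes tested. Fits held the groups compared, and the difference between the effects of the deletions used all 15 libraries. Exact permutation tests were two-sided. The scripts were tested on simulated data. Alternatives changed the pseudocount, filter, trend, scaling, controls or tool (limma-voom), or left out each library. A covariate of mean gene length per read, the omission of the 2 libraries with the highest visceral endoderm sums, all alternatives of the interaction, isozyme shares, step totals and the sum over *Gapdh* copies were chosen after seeing the data. Members and lists were chosen with earlier results of these data known. Named genes were the members, their isozymes, *Ezh2* and, of each other list, those called, the 3 with the highest WT mean and the 2 with the largest rise and fall in Tie2-Ezh2-KO against WT; some are not reported here. Shared windows and promoters were read with Python 3.11.15 from GENCODE M21 and RefSeq promoter sequences.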

Additional observations from a re-analysis of the deposited data

Results flagged for a closer look

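A value was flagged where it lay far from the other 4 libraries of its group (Dixon's Q above 0.71), a rule that chance meets in about 1 of 20 groups. It flagged 16 values in 194 groups of 5 libraries, 4 of them in Tie2-Ezh2-KO 7 and 4 in Tie2-Ezh2-KO 9. One was a member: *Eno1* in Vav-Ezh2-KO 9 was 11.9 RPKM (others 20.4 to 22.6).

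In Tie2-Ezh2-KO 7, *Pgam2* was 0 RPKM (others 0.578 to 0.894), *Ldhc* 1.05 (0.300 to 0.412), *Trf* 51.6 (18.8 to 22.5) and *Afp* 59.9 (0.840 to 2.44). In Tie2-Ezh2-KO 9, *Pklr* was 0 (0.698 to 1.17), *Mpc2* 172 (108 to 123), *Pecam1* 6.67 (12.5 to 13.8) and *Csf1r* 0.523 (5.17 to 7.09). *Ldhb* was 24.3 in Tie2-Ezh2-KO 13 (46.9 to 58.0) and *Hk3* 0.836 in Tie2-Ezh2-KO 17 (0 to 0.0200). In Vav-Ezh2-KO, *Pfkfb4* was 0.307 in replicate 9 (0.879 to 1.21), *Itga2b* 16.7 (27.6 to 33.9) and *Hbb-y* 0.863 (2.92 to 4.63) in replicate 10, *Ldhc* 0.133 in replicate 26 (0.691 to 0.951), and *Bhlhe40* 0.414 in replicate 28 (0 to 0.0523).

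A difference between groups flagged *Hba-x*, whose effect of the deletion differed between the crosses by 6.41 ± 1.24 on the log2 scale (SE; limma, adjusted p = 0.0457). The call was lost in 19 of 25 alternatives, with adjusted p up to 0.731.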

How the results depend on the processing

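The count of 0 members called by limma held in all 5 comparisons and all 101 alternatives, and in each omission of a library (0 to 0). Members changed sign 88 times, in 52 of the alternatives. Counts of all genes called moved by more than 1.5 times as follows, and the cause was not tested. Tie2-Ezh2-KO against WT (386) gave 240 with a mean above 1 RPKM, 187 with the corresponding WT libraries only and 217 without the 2 libraries with the highest visceral endoderm sums. Vav-Ezh2-KO against WT (1) gave 2 under scaling to a common median, 0 with limma-voom and 2 with the corresponding WT libraries. Tie2-Ezh2-KO against Vav-Ezh2-KO (495, 372 higher) gave 782 (470 higher) with mean gene length per read as a covariate. Tie2-Ezh2-WT against Vav-Ezh2-WT (2) gave 1 with a pseudocount of 1, 4 without the filter, 1 without trend, 0 under scaling to a common median, 0 with limma-voom and 1 with the covariate. The difference between the effects of the deletions (26, 23 higher) gave 16 without the filter, 10 with a mean above 1 RPKM, 12 (9 higher) under quantile normalization, 10 (8 higher) under scaling to a common median, 2 with limma-voom and 9 without the 2 libraries with the highest visceral endoderm sums. Scaling to a common median shifted its median over all genes by -0.14. With a count that moved less, 334 of 525 genes were higher in Tie2-Ezh2-KO against Vav-Ezh2-KO under quantile normalization, beside 372 of 495.

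Leaving out each library gave 262 to 438, 1 to 2, 320 to 969, 0 to 8 and 8 to 32 genes in these comparisons. The third gave 969 without Tie2-Ezh2-KO 9 and 320 without Vav-Ezh2-KO 28. Vav-Ezh2-KO against WT gave 2 without Tie2-Ezh2-WT 10, Tie2-Ezh2-WT 12 or Vav-Ezh2-WT 4. The controls gave 8 without Vav-Ezh2-WT 4, 4 without Vav-Ezh2-WT 6, 0 without Tie2-Ezh2-WT 4 and 1 without Tie2-Ezh2-WT 12; where 1 library of Vav-Ezh2-WT was left, it was assumed to vary like the others. The interaction gave 15, 9 and 11 without Tie2-Ezh2-WT 4, 10 and 12, 13 and 8 without Vav-Ezh2-WT 4 and 6, 16, 16 and 15 without Tie2-Ezh2-KO 7, 11 and 17, and 14, 17 and 12 without Vav-Ezh2-KO 1, 10 and 28. No paired analysis was possible, since each library came from an individual YS and the replicate numbers are not known to mark pairs. Genes of few reads are limited by depth.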
